A study of Mus musculus with 11 samples.

Results

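The genes described here encode 9 kinases and phosphatases that have been linked to the neuronal response to ethanol, namely Prkce, Prkca, Fyn, Ptpn5, Ptprz1, Alk, Akt1, Gsk3b and Mtor. They were taken by name from what is known of the ethanol response, and no threshold on a measured value entered the rule, though earlier results of these data were known when it was written. Each symbol matched a single mouse Ensembl identifier among the 53465 genes counted, and all 9 passed the filter on low counts, which kept 17093 genes.

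RNA was sequenced from CRF1-expressing (CRF1+) neurons of the medial prefrontal cortex (mPFC), isolated by fluorescence-activated cell sorting from adult male CRF1:GFP mice of at least 10 weeks of age. In this reporter line, GFP marks cells that express the type-1 corticotropin-releasing factor receptor (CRF1). Withdrawn mice (n = 5) received chronic intermittent ethanol vapor for 5 to 6 weeks, with injections of ethanol and of pyrazole, which slows ethanol breakdown, and were taken 5 to 8 days into abstinence. Naïve mice (n = 6) breathed air and were also given pyrazole, so no group was free of that drug. Every library came from a single mouse and was amplified from 160 pg of RNA of sorted cells. The comparison is between the RNA of withdrawn and of naïve mice in this neuron population.

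Prkce and Prkca encode protein kinase C (PKC) isoforms, which are activated by diacylglycerol downstream of G protein-coupled receptors, and mice without PKCε drink less ethanol. Fyn is a Src family tyrosine kinase that phosphorylates NMDA receptor subunits, and the striatal-enriched phosphatase STEP, encoded by Ptpn5, inactivates Fyn and reverses this phosphorylation. The receptor phosphatase PTPRZ1 and the receptor kinase ALK share the growth factors pleiotrophin and midkine as ligands. AKT1 phosphorylates and inhibits GSK3β and acts upstream of mTOR, the kinase that drives protein synthesis at synapses as part of mTORC1.

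Gene counts per library ran from 9970161 to 17855514 in naïve mice and from 7351567 to 22244869 in withdrawn mice, so that 3 counts in a library equalled 0.135 to 0.408 CPM (counts scaled to the size of the library). Such a floor describes counting error alone, because amplified reads are not independent molecules. Crhr1, the gene of CRF1, was present in every mouse at 92.7 ± 21.5 CPM across naïve mice (SD, n = 6) and 89.3 ± 33.6 CPM across withdrawn mice (SD, n = 5). The summed level of 6 glutamatergic neuron markers was 1819 to 3196 CPM in naïve and 1367 to 2862 CPM in withdrawn mice. Markers of other cell types were also present. Over all 11 mice, GABAergic neuron markers summed to 28.5 to 923 CPM, endothelial markers to 3.18 to 760 CPM, oligodendrocyte markers to 109 to 270 CPM and mural cell markers to 0.135 to 207 CPM. Some sums were higher in withdrawn mice, with 3 of 5 above every naïve mouse for astrocytes (9.41 to 164 CPM in naïve, 13.9 to 380 CPM in withdrawn mice) and for oligodendrocyte precursors (0 to 15.5 and 8.21 to 28.5 CPM), and 4 of 5 for microglia (7.84 to 24.2 and 8.28 to 44.3 CPM). The markers within a sum did not all rise. Only 2 of 5 tested astrocyte markers had a log2 fold change above 0, against 3 of 3 for oligodendrocyte precursors and 2 of 3 for microglia. A set of 8 fibroblast markers summed to 0.0677 to 73.1 CPM in naïve mice and to 18.4 to 1318 CPM in withdrawn mice. Naïve mouse 5 stood apart. It had the fewest genes detected (15585, against up to 31830 in the other mice) and was the highest or lowest of all mice for 41.5% of the tested genes, against 5.52 to 30.5% for each other mouse. For withdrawn mice 3, 4 and 5 a further label reads control although title and treatment give ethanol, and the design text of the series states the group sizes the other way round, as 5 controls and 6 ethanol mice. Group membership is therefore in some doubt, and the results were also computed without these 3 mice. In bulk libraries of sorted cells, fewer cells of a type and less RNA per cell cannot be told apart.

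None of the 9 genes passed the thresholds for differential expression, which asked of edgeR's quasi-likelihood test for an adjusted p not above 0.05 together with a difference of more than 0.6, up or down, on the log2 scale. Across the transcriptome that test called 1 gene, or 0.00585% of those tested, and DESeq2 called 362, or 1.66%, none of them among the 9. Fyn and Gsk3b had an unadjusted p under 0.05 (edgeR), as did 7.22% of all tested genes, and both were lower in withdrawn mice, as were 2.22% of tested genes at that level, while 5.00% were higher. The median log2 fold change of the 9 genes was -0.12, with 4 above 0 and 5 below, against a median of 0.02 over all tested genes, of which 51.8% were above 0. Naïve mouse 5 had the highest level of Akt1 and Gsk3b and the lowest level of Prkce, Prkca and Mtor of all 11 mice, so each of these genes is given with and without it.

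**Figure D1:**
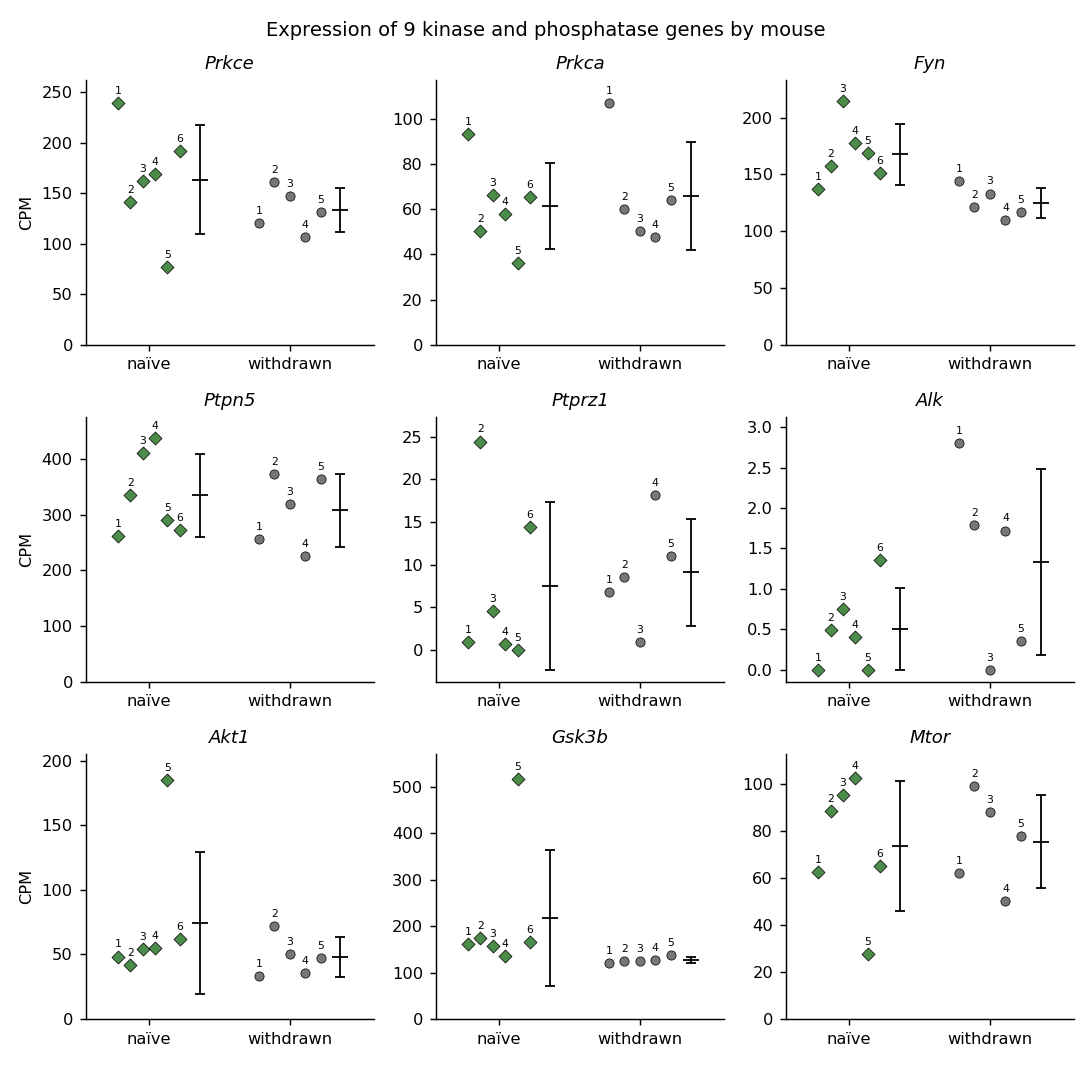
Level of each gene in every mouse, in CPM on a linear axis whose range differs between panels (diamonds, 6 naïve mice; circles, 5 withdrawn mice; numbers name the mouse). Horizontal ticks and bars are the group mean ± SD. Naïve mouse 5 lies far above the other mice for Akt1 (185 CPM) and Gsk3b (517 CPM), and 4 of 5 withdrawn mice lie below every naïve mouse for Fyn.

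Levels between genes were compared per kilobase (kb) of annotated exon. Ptpn5 was the most abundant at 55.7 ± 11.8 CPM per kb (SD, n = 11) and exceeded Fyn, at 34.0 ± 7.03 CPM per kb, in all 11 mice. Fyn in turn exceeded Prkce in 10 of 11 mice. Prkce (20.6 CPM per kb), Gsk3b (18.0) and Akt1 (15.2) followed, and each of these exceeded the next in 10 of 11 mice or, for Akt1 over Mtor, in all 11. Mtor (7.37 CPM per kb) was above Prkca (7.08 CPM per kb) in only 6 of 11 mice, so the order of this pair was not resolved. The receptor genes formed the low end. Ptprz1 averaged 0.579 CPM per kb and Alk 0.114 CPM per kb, and Ptprz1 was the higher of the pair in 9 of 11 mice.

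**Figure D2:**
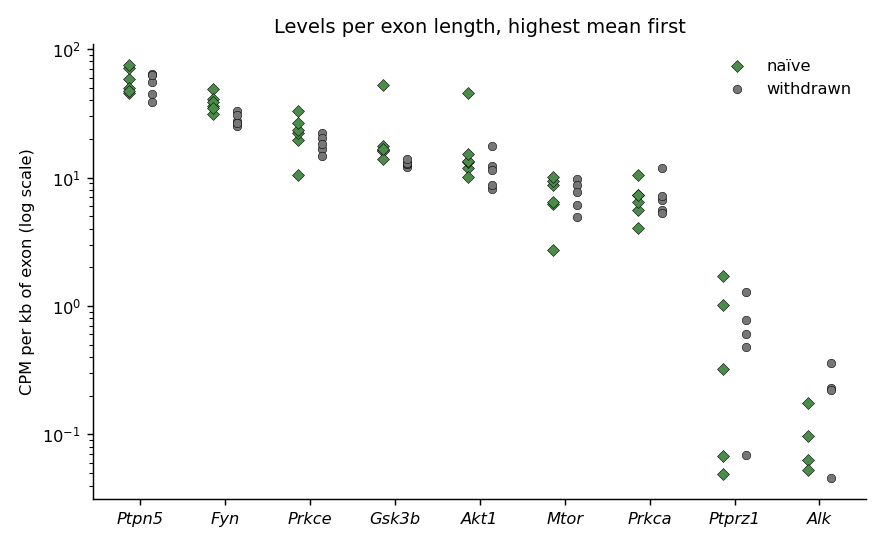
Level of each gene per kb of exon on a log axis, with genes in order of their mean over all mice (diamonds, naïve; circles, withdrawn). Mice at 0 counts cannot be drawn on this axis (1 mouse for Ptprz1, 3 for Alk). Ptpn5 is at 38.8 to 75.6 CPM per kb, while Alk does not exceed 0.362 CPM per kb in any mouse.

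Fyn (ENSMUSG00000019843) lies on the plus strand of chromosome 10 in GRCm38 (chr10:39368855-39565381). In naïve mice it ranged from 137 to 215 CPM with a median of 163 CPM. Withdrawn mice 1 to 5 had 144, 121, 133, 110 and 117 CPM. All 5 were thus below the naïve median and 4 of 5 below the lowest naïve mouse, with withdrawn mouse 1 overlapping the naïve range. The group means were 168 ± 27.0 CPM across naïve mice (SD, n = 6) and 125 ± 13.5 CPM across withdrawn mice (SD, n = 5). Fyn had a log2 fold change of -0.43 with a standard error of 0.15 and a 95% interval of -0.74 to -0.11 (edgeR, unadjusted p = 0.0127, adjusted p = 0.461). Fyn was among the genes that varied least between mice of a group, with a biological coefficient of variation of 20.1% and a dispersion lower than that of all but 1.33% of tested genes. Naïve mouse 5 had 169 CPM, near the median of its group, and without it the log2 fold change was -0.42 (edgeR, unadjusted p = 0.0151). Without the 3 withdrawn mice with conflicting labels it was -0.39 (edgeR, unadjusted p = 0.114).

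Among the 7 Src family kinases counted, Fyn made up the greater part of the summed level per kb, 75.7 ± 5.51% in naïve and 66.2 ± 6.34% in withdrawn mice. Src, the next in the family, made up 20.4 ± 4.16% and 26.2 ± 6.74%. The ranges of the Fyn share overlapped, at 69.7 to 86.0% in naïve and 59.0 to 73.0% in withdrawn mice. Src itself was at 45.8 ± 13.2 CPM across naïve mice (SD, n = 6) and 49.9 ± 15.1 CPM across withdrawn mice (SD, n = 5), with a log2 fold change of 0.12 and a 95% interval of -0.44 to 0.69. Yes1, Lyn and Lck averaged between 1.40 and 5.46 CPM in each group, and Fgr, which is characteristic of myeloid cells, did not pass the filter on low counts. Of the 10 genes of the Src family and its regulators 8 were tested, 6 of these had a log2 fold change above 0, and the median was 0.11.

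Ptpn5 (ENSMUSG00000030854, chr7:47077795-47133684, minus strand) was higher in level than 97.1% of tested genes. It ranged from 262 to 438 CPM with a median of 313 CPM in naïve mice. The withdrawn mice had 257, 373, 320, 225 and 364 CPM, so that 2 of them were below the naïve range and the other 3 within it. Its log2 fold change was -0.12 with a 95% interval of -0.52 to 0.28, which corresponds to a level in withdrawn mice between 0.696 and 1.21 times that of naïve mice. STEP belongs to a small group of phosphatases that act on MAP kinases, and Ptpn5 formed 85.8 ± 4.35% and 84.0 ± 4.89% of the level per kb of that group in naïve and withdrawn mice. Ptprr was next at 13.9 ± 4.47% and 15.7 ± 4.97%, and Ptpn7 was below the filter.

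The kinase and its phosphatase can be set against each other within each mouse, which does not depend on the scaling between libraries. The log2 ratio of Fyn to Ptpn5 per kb was -0.57 ± 0.19 (SD, n = 6) in naïve mice, ranging from -0.89 to -0.37. It was -0.87 ± 0.35 (SD, n = 5) in withdrawn mice, ranging from -1.23 to -0.43. The ranges overlapped, and 2 withdrawn mice were below the lowest naïve mouse.

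Of 7 shared or separate substrates of Fyn and STEP, none passed the thresholds, 2 had a log2 fold change above 0 and 5 below, and the median was -0.28. Grin2a, which encodes the GluN2A subunit of NMDA receptors, was at 137 to 215 CPM with a median of 156 CPM in naïve mice, and at 132, 76.5, 139, 84.1 and 131 CPM in withdrawn mice 1 to 5. Of the withdrawn mice, 4 of 5 were below the naïve range (log2 fold change -0.54, 95% interval -0.95 to -0.13, edgeR unadjusted p = 0.0144, adjusted p = 0.473). Grin2b, for the GluN2B subunit that Fyn phosphorylates, had a log2 fold change of 0.09 with a 95% interval of -0.49 to 0.67. In the list of 8 STEP family genes and regulators, 7 were tested and the median log2 fold change was -0.16. Ppp3cb, a catalytic subunit of calcineurin, the calcium-dependent phosphatase upstream of STEP, was at 97.3 to 161 CPM in naïve mice and at 79.2, 51.0, 130, 80.5 and 102 CPM in withdrawn mice. Its log2 fold change was -0.48 (edgeR, unadjusted p = 0.0483, adjusted p = 0.689), while that of Ppp3ca, a more abundant catalytic subunit, was -0.16 with a 95% interval of -0.46 to 0.14. The calcineurin regulatory subunit gene Ppp3r1 had the highest level per kb of this list, 264 CPM per kb, and a log2 fold change of -0.07 (95% interval -0.43 to 0.29).

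Prkce (ENSMUSG00000045038, chr17:86167785-86657919, plus strand) encodes PKCε, an isoform that responds to diacylglycerol without calcium. An exon segment of 472 bases is shared with another annotated gene on the same strand, AC154542.1, out of 7261 exonic bases. Naïve mice ranged from 76.6 to 240 CPM with a median of 166 CPM, and withdrawn mice had 121, 161, 147, 107 and 132 CPM. All 5 withdrawn mice were below the naïve median, but the lowest value of all 11 mice was that of naïve mouse 5, so the groups overlapped fully. For Prkce the log2 fold change was -0.29 with a 95% interval of -0.80 to 0.22 (edgeR, adjusted p = 0.868). Without naïve mouse 5 it was -0.43 (edgeR, unadjusted p = 0.0276, adjusted p = 0.543), and the remaining naïve mice were at 141 to 240 CPM. Without naïve mouse 1, which had the highest value, it was -0.14 (edgeR, adjusted p = 0.973), and with the replicate number as a block it was -0.17.

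Prkca (ENSMUSG00000050965, chr11:107933387-108343928, minus strand) encodes PKCα, a calcium-dependent isoform, and shares 30 exonic bases with Apoh on the opposite strand. It ranged from 36.2 to 93.3 CPM with a median of 61.7 CPM in naïve mice and was at 107, 60.3, 50.5, 47.8 and 64.1 CPM in withdrawn mice. Mouse 1 was the highest of its group in each case. For Prkca the log2 fold change was 0.10 with a 95% interval of -0.47 to 0.67 (edgeR, adjusted p = 0.969), and its sign turned without naïve mouse 5 (-0.01) and without withdrawn mouse 1 (-0.16). Prkce was higher than Prkca per kb in every mouse, with a log2 ratio of 1.69 ± 0.18 (SD, n = 6) in naïve mice, between 1.39 and 1.86. In withdrawn mice the ratio was 1.37 ± 0.54 (SD, n = 5) and ranged from 0.48 to 1.85.

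Neither isoform dominated the PKC family in these neurons. Prkcb, which encodes the calcium-dependent PKCβ, made up 37.7 ± 2.87% of the summed level per kb in naïve and 36.2 ± 3.46% in withdrawn mice. Prkcz formed 9.74% and 9.99%, Prkce 6.90 ± 2.31% and 6.70 ± 0.90%, Prkci 3.15% and 4.14%, and Prkca 2.12 ± 0.70% and 2.76 ± 1.23%. The log2 fold change of Prkcb was -0.26, with a 95% interval of -0.63 to 0.12. Of the 9 isoforms 8 were tested, with a median log2 fold change of -0.22, Prkcq was below the filter, and Prkch averaged 7.55 ± 4.78 CPM across naïve mice (SD, n = 6) and 4.94 ± 4.93 CPM across withdrawn mice (SD, n = 5).

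Prkcd, the gene of PKCδ, another calcium-independent isoform, was the exception in size. Its counts were 0 to 114 in naïve mice, equal to 0 to 6.26 CPM with a median of 0.676 CPM, and 2 naïve mice were at 0. Withdrawn mice had 53.7, 2.13, 26.0, 56.2 and 15.3 CPM. All but withdrawn mouse 2 were thus above every naïve mouse. Prkcd had a log2 fold change of 4.09 with a 95% interval of 1.57 to 6.61. It missed the threshold in edgeR (unadjusted p = 0.00375, adjusted p = 0.290) and passed it in DESeq2 (4.14, adjusted p = 0.0201).

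The 12 partners and substrates of PKC were all tested, none passed the thresholds, 9 had a log2 fold change below 0 and the median was -0.16. Nrgn, which encodes the postsynaptic PKC substrate neurogranin, had the highest level per kb of this list, 715 CPM per kb, with a log2 fold change of -0.28 and a 95% interval of -0.80 to 0.23. Gap43, whose product is the growth-associated PKC substrate of axon terminals, was at 418 to 1036 CPM with a median of 512 CPM in naïve mice. It was at 301, 292, 472, 272 and 407 CPM in withdrawn mice, and 4 of these were below the naïve range (log2 fold change -0.74, edgeR unadjusted p = 0.00851, adjusted p = 0.395). The value of 1036 CPM belonged to naïve mouse 5, and the log2 fold change without it was -0.48 (edgeR, unadjusted p = 0.0138). Gnaq, the G protein subunit that activates phospholipase C upstream of PKC, was at 245 ± 37.9 CPM across naïve mice (SD, n = 6) and 189 ± 26.1 CPM across withdrawn mice (SD, n = 5), with 4 of 5 withdrawn mice below the naïve range and a log2 fold change of -0.37 (edgeR, unadjusted p = 0.0248, adjusted p = 0.567). Naïve mouse 5 was highest in Gnaq too (309 CPM), and without it the log2 fold change was -0.29 (edgeR, unadjusted p = 0.0569). By limma voom with all mice it was -0.21 (unadjusted p = 0.0849).

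Ptprz1 (ENSMUSG00000068748, chr6:22875502-23052916, plus strand) encodes the receptor phosphatase beta/zeta, which in brain is best known from astrocytes and oligodendrocyte precursors. It ranged from 0 to 24.4 CPM with a median of 2.78 CPM in naïve mice, from counts of 0 to 445. Withdrawn mice had 6.77, 8.62, 0.981, 18.2 and 11.0 CPM. Values spanned more than an order of magnitude within each group, the groups overlapped, and the biological coefficient of variation was 122%. Its log2 fold change was 0.27 with a standard error of 1.12 and a 95% interval of -2.13 to 2.67 (edgeR, adjusted p = 0.982), so that neither a rise nor a fall of several fold could be told from no difference. Without the 3 withdrawn mice with conflicting labels it was -0.02. Naïve mouse 5, at 0 counts of Ptprz1, was also at 0 for the summed oligodendrocyte precursor markers and had the lowest summed astrocyte markers, 9.41 CPM. The 2 naïve mice highest in Ptprz1, mice 2 and 6 with 24.4 and 14.4 CPM, had the highest naïve sums of astrocyte markers, 164 and 134 CPM. In the withdrawn group, mouse 4 was highest in Ptprz1 with 18.2 CPM and highest in both marker sums with 380 CPM for astrocytes and 28.5 CPM for oligodendrocyte precursors, while mouse 3 was lowest in Ptprz1 at an astrocyte sum of 252 CPM. The part of these cell types in the level of Ptprz1 was not tested.

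Alk (ENSMUSG00000055471, chr17:71868972-72604627, minus strand) was near the limit of detection, with a level higher than that of only 3.22% of the tested genes. Counts were 0 to 22 in naïve mice, equal to 0 to 1.36 CPM with a median of 0.451 CPM. Withdrawn mice had 2.81, 1.79, 0, 1.72 and 0.354 CPM, from counts of 0 to 39. Withdrawn mice 1, 2 and 4 were above every naïve mouse, and 3 of all 11 mice had no count. Alk had a log2 fold change of 1.38 with a 95% interval of -1.31 to 4.07 (edgeR, adjusted p = 0.889), and by limma voom with sample quality weights this turned to -0.42. The log2 ratio of Alk to Ptprz1 per kb, in the 8 mice with counts of both, was -2.23 ± 2.01 (SD, n = 4) in naïve and -2.10 ± 1.59 (SD, n = 4) in withdrawn mice.

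In contrast with Alk, its relative Ltk was measured in every mouse, at 41.5 ± 12.4 CPM across naïve mice (SD, n = 6) and 42.6 ± 15.99 CPM across withdrawn mice (SD, n = 5) (log2 fold change 0.04, 95% interval -0.57 to 0.65). Of the 10 genes of ALK and PTPRZ1 receptors and ligands 9 were tested, 7 of them had a log2 fold change above 0, and the median was 0.08. The ALK ligand genes Alkal1 and Alkal2 were scarce. Alkal1 was below the filter, and Alkal2 was at 0.623 ± 0.779 CPM across naïve mice (SD, n = 6) and 2.42 ± 3.97 CPM across withdrawn mice (SD, n = 5). Ptn, encoding pleiotrophin, had the highest level per kb of the 10 genes of this list, 45.4 CPM per kb, and was at 161 ± 56.4 CPM across naïve mice (SD, n = 6) and 150 ± 18.3 CPM across withdrawn mice (SD, n = 5), with a log2 fold change of -0.10 and a 95% interval of -0.56 to 0.35.

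Mdk, encoding the other shared ligand midkine, followed the pattern of Prkcd. It was at 0.322 to 2.84 CPM with a median of 2.76 CPM in naïve mice and at 72.2, 0, 18.7, 43.8 and 10.3 CPM in withdrawn mice, of which 4 were above every naïve mouse and withdrawn mouse 2 had no count. Mdk had a log2 fold change of 3.71 with a 95% interval of 1.56 to 5.86. It missed the threshold in edgeR with all mice (unadjusted p = 0.00243, adjusted p = 0.256), and passed it in DESeq2 (adjusted p = 0.00781) and in edgeR without withdrawn mouse 2 (log2 fold change 4.00, adjusted p = 0.00834), a fit that called 193 genes in all. Without any other single withdrawn mouse Mdk missed the threshold, as with mouse 1 left out (log2 fold change 3.01, edgeR adjusted p = 0.818), and with the replicate number as a block it was at 2.79 (edgeR, unadjusted p = 0.112, adjusted p = 0.891). In the absence of the 3 withdrawn mice with conflicting labels, Mdk had a log2 fold change of 4.01 and Prkcd of 3.95 (edgeR, adjusted p = 0.683 and 0.789).

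Among withdrawn mice, the summed fibroblast markers and both genes were lowest in mouse 2 and next lowest in mouse 5. This was not particular to fibroblast markers, as the astrocyte, microglia and mural cell sums were too. Astrocyte sums were 342, 13.9, 252, 380 and 144 CPM in withdrawn mice 1 to 5. Microglia sums were 40.6, 8.28, 37.2, 44.3 and 26.7 CPM, and mural cell sums 44.95, 11.4, 18.2, 207 and 13.2 CPM. The sums of the other cell types were not ordered in this way. The fibroblast sums were 1318, 18.4, 672, 927 and 225 CPM in withdrawn mice 1 to 5, with withdrawn mouse 2 the only one inside the naïve range. The order of fibroblast markers, Prkcd and Mdk did not hold among naïve mice. Naïve mouse 5 was lowest in fibroblast markers (0.0677 CPM) and at 0 for Prkcd, but highest in Mdk (2.84 CPM). Prkcd was highest in naïve mouse 2 (6.26 CPM) and the fibroblast sum in naïve mouse 3 (73.1 CPM). Of the 8 fibroblast markers 6 were tested, all 6 had a log2 fold change above 0, 5 of them had an unadjusted p under 0.05 (edgeR), and none of the 8 was at 0 in all mice. The part of any of these cell types in the levels of Prkcd and Mdk was not tested.

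**Figure D3:**
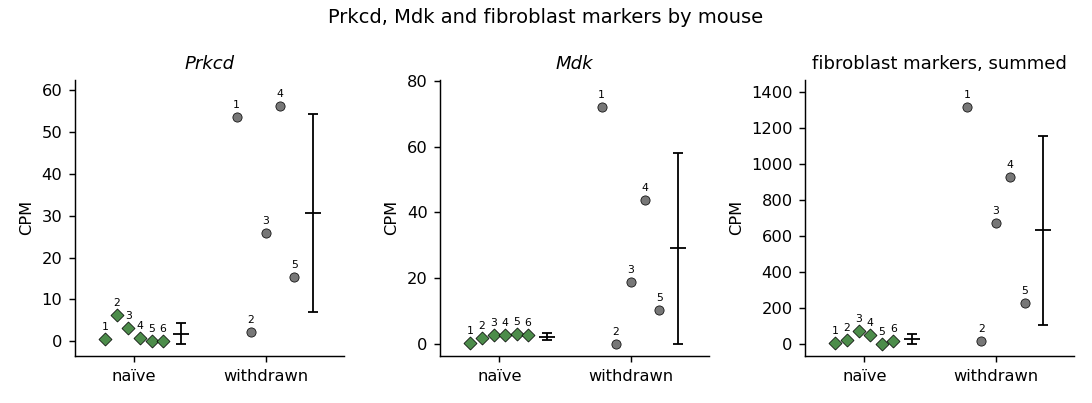
Prkcd, Mdk and the sum of 8 fibroblast markers in every mouse, in CPM on linear axes (diamonds, 6 naïve mice; circles, 5 withdrawn mice; numbers name the mouse; ticks and bars are mean ± SD). Withdrawn mice 1, 3, 4 and 5 are above all naïve mice in each panel and withdrawn mouse 2 is not, with 2.13 CPM of Prkcd, 0 CPM of Mdk and 18.4 CPM of fibroblast markers. Marker sums of other cell types are not drawn. Those of astrocytes, microglia and mural cells were also lowest in mouse 2 among withdrawn mice.

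Akt1 (ENSMUSG00000001729, chr12:112653821-112674884, minus strand) ranged from 41.6 to 185 CPM with a median of 54.5 CPM in naïve mice. Withdrawn mice had 33.6, 72.0, 50.3, 35.8 and 47.2 CPM. Withdrawn mice 1 and 4 were below the naïve range and the other 3 within it. The log2 fold change was -0.64 with a 95% interval of -1.45 to 0.17 (edgeR, unadjusted p = 0.114, adjusted p = 0.796). Naïve mouse 5 was the highest of all mice, and its 185 CPM was 3.43 times the median of the other naïve mice (54.0 CPM). Without it the naïve mean was 52.2 ± 7.72 CPM (SD, n = 5) and the log2 fold change -0.12 (edgeR, unadjusted p = 0.609).

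Akt1 was the most abundant AKT gene per kb, with 55.4 ± 13.9% of the summed AKT level in naïve and 48.5 ± 11.2% in withdrawn mice. The naïve mean includes naïve mouse 5, where the share was 82.4%, and the medians were 52.0% in naïve and 47.2% in withdrawn mice. Akt2 made up 15.2 ± 3.83% in naïve mice and 28.3 ± 9.38% in withdrawn mice. Akt2 was at 23.5 to 45.1 CPM in naïve mice and at 67.5, 32.6, 62.8, 36.9 and 38.3 CPM in withdrawn mice, with withdrawn mice 1 and 3 above every naïve mouse (log2 fold change 0.60, 95% interval 0.01 to 1.19, edgeR unadjusted p = 0.0461, adjusted p = 0.683). All 12 genes of the PI3K and AKT list were tested, none passed the thresholds, 9 were below 0 and the median was -0.08. Pik3r2, a regulatory subunit of PI3K, had the highest level per kb in that list, 39.8 CPM per kb, with a log2 fold change of -0.08.

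Gsk3b (ENSMUSG00000022812, chr16:38089001-38246084, plus strand) had the lowest log2 fold change of the 9 genes in edgeR with all mice. Without naïve mouse 5, Prkce (-0.43) and Fyn (-0.42) were lower. By limma voom Alk and Fyn (both -0.42) were lower, and without withdrawn mouse 2 Akt1 was (-0.855). Naïve mice ranged from 136 to 517 CPM with a median of 163 CPM. The 5 withdrawn mice lay close together at 120, 125, 125, 128 and 138 CPM, all below the naïve median and 4 of 5 below the lowest naïve mouse. The log2 fold change was -0.78 with a standard error of 0.31 and a 95% interval of -1.46 to -0.11 (edgeR, unadjusted p = 0.0259, adjusted p = 0.575). As with Akt1, naïve mouse 5 was highest, at 3.20 times the median of the other naïve mice (162 CPM). Without it the naïve mean was 159 ± 13.9 CPM (SD, n = 5), against 127 ± 6.68 CPM (SD, n = 5) in withdrawn mice. That fit gave a log2 fold change of -0.32, with less spread among the naïve mice (edgeR, unadjusted p = 0.0236, adjusted p = 0.519). Without the 3 withdrawn mice with conflicting labels it was -0.89 (edgeR, unadjusted p = 0.0949).

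Gsk3a, which encodes the other GSK3 isoform, was at 21.0 ± 7.16 CPM across naïve mice (SD, n = 6) and 20.8 ± 0.433 CPM across withdrawn mice (SD, n = 5), with a log2 fold change of -0.01 and a 95% interval of -0.71 to 0.69. In naïve mouse 5 it was the lowest of all mice, at 7.18 CPM, where Gsk3b was the highest. Gsk3b made up 71.2 ± 12.5% of the summed GSK3 level per kb in naïve and 64.2 ± 1.30% in withdrawn mice. The naïve mean includes naïve mouse 5, where the share was 95.5%, and the medians were 68.6% in naïve and 64.3% in withdrawn mice. The log2 ratio of Akt1 to Gsk3b per kb was -0.33 ± 0.27 (SD, n = 6) in naïve and -0.20 ± 0.43 (SD, n = 5) in withdrawn mice. Among the 9 genes of GSK3 and its partners, 7 were below 0 with a median log2 fold change of -0.14. Dpysl2, the gene of the GSK3 substrate CRMP2, had the highest level, 176 CPM per kb. Its log2 fold change was -0.58 with a 95% interval of -1.24 to 0.07. Both values include naïve mouse 5, which had 2088 CPM of Dpysl2. The other naïve mice were at 643 to 764 CPM and withdrawn mice at 461 to 779 CPM. The fold change of Dpysl2 without naïve mouse 5 is not reported here.

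Mtor (ENSMUSG00000028991, chr4:148448611-148557683, plus strand) ranged from 27.5 to 103 CPM with a median of 76.8 CPM in naïve mice. Withdrawn mice had 62.0, 99.2, 88.3, 50.0 and 78.0 CPM, all within the naïve range. The log2 fold change was 0.04 with a 95% interval of -0.60 to 0.67, or 0.661 to 1.59 times the naïve level (edgeR, adjusted p = 0.989). Naïve mouse 5 was the lowest of all mice, and without it the log2 fold change was -0.12. Rptor and Rictor, whose products define the mTOR complexes mTORC1 and mTORC2, were at 65.0 ± 17.0 and 125 ± 30.6 CPM (SD, n = 6) in naïve mice and at 61.0 ± 13.1 and 106 ± 21.6 CPM (SD, n = 5) in withdrawn mice. Their log2 fold changes were -0.09 and -0.24, with 95% intervals of -0.59 to 0.41 and -0.67 to 0.19. None of the 13 genes of the mTOR complexes and their regulators and none of the 7 targets of mTORC1 had an unadjusted p under 0.05 (edgeR), and the median log2 fold changes were 0.04 and 0.05. Rheb, the GTPase that activates mTORC1, and Rps6, a ribosomal protein that its pathway phosphorylates, had the highest levels per kb of these lists, 43.2 and 65.8 CPM per kb, with log2 fold changes of -0.40 (95% interval -0.82 to 0.03) and -0.15 (95% interval -0.57 to 0.26). Naïve mouse 5 had the highest level of Rheb, 596 CPM, against a naïve median of 339.5 CPM and a range of 243 to 337 CPM in withdrawn mice.

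**Figure D4:**
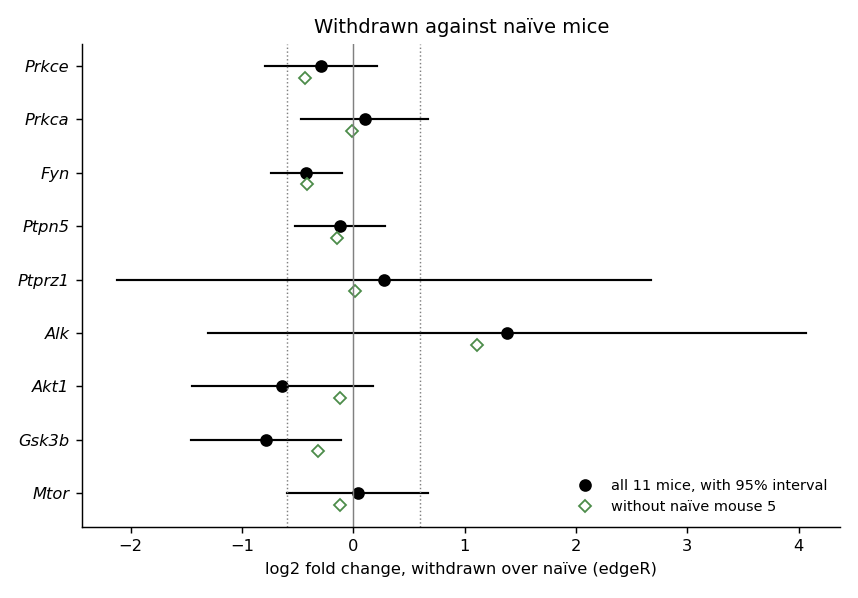
Log2 fold change of each gene, withdrawn over naïve, from edgeR. Filled circles with bars are the estimates from all 11 mice with their 95% interval, open diamonds the estimates without naïve mouse 5, and dotted lines the fold threshold of 0.6 in each direction. The intervals of Fyn and Gsk3b alone leave out 0, and the estimate of Akt1 moves from -0.64 to -0.12 without naïve mouse 5.

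Over all 10 pathway lists, 97 genes were counted once each, 92 were tested and 5 were below the filter. None passed the thresholds in edgeR. An unadjusted p under 0.05 was reached by 3 genes that were higher in withdrawn mice (Prkcd, Mdk and Akt2) and 6 that were lower (Fyn, Gsk3b, Gap43, Gnaq, Grin2a and Ppp3cb), against 5.00% and 2.22% of all tested genes. The median log2 fold change of the 92 genes was -0.08, with 38 above 0 and 54 below. DESeq2 called 2 of them, Prkcd and Mdk.

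**Figure D5:**
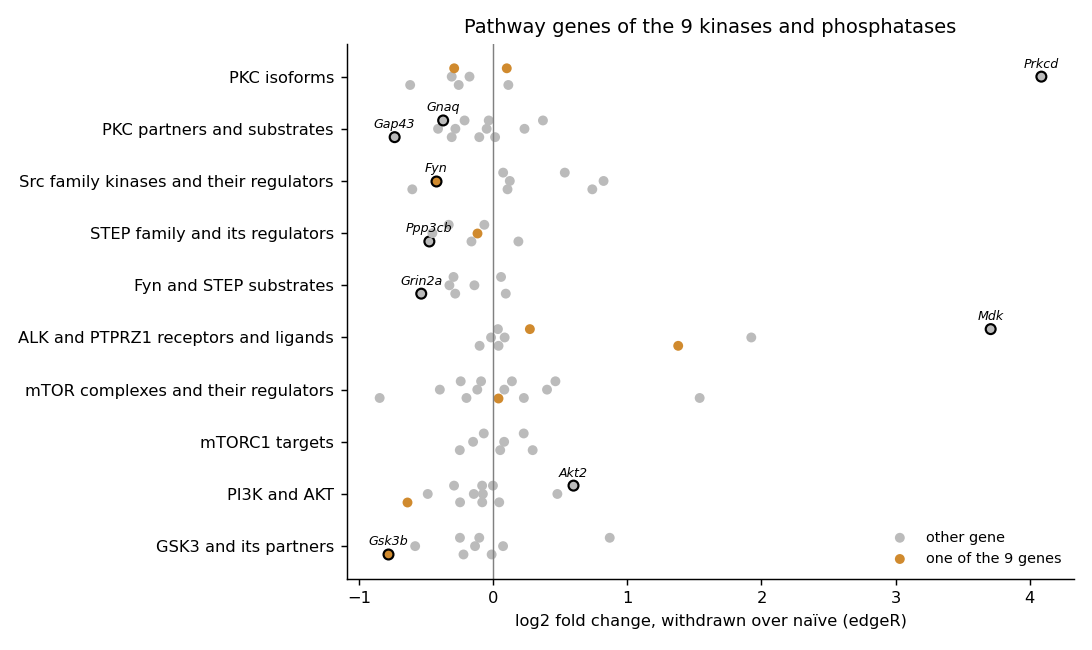
Log2 fold change (edgeR, withdrawn over naïve) of the tested genes of the 10 pathway lists, 1 row per list. Coloured points are the 9 genes described here, grey points the others, and the genes with black outlines and names had an unadjusted p under 0.05. Most points lie between -1 and 1, while Prkcd and Mdk lie at 4.09 and 3.71.

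The genes whose log2 CPM followed each of the 9 most closely over the 11 mice are given as a description, since all genes share the same libraries and depth. Mtor had the closest neighbours, with Pearson's r = 0.99 for Prkaa2, which encodes a catalytic subunit of AMPK, 0.97 for the sodium channel gene Scn2a and 0.97 for Kif1b. For Prkce these were Gm24270 (r = 0.96), Rad23b (0.96) and the synuclein gene Sncb (0.95), and for Ptpn5 they were Sarm1 (0.96), Wdfy3 (0.92) and Sugp2 (0.92). For Akt1 they were Nudc (0.96), Dpysl2 (0.96) and Impact (0.95), and for Gsk3b Cct5 (0.97), Inpp4a (0.96) and Dact3 (0.96). Among the genes most like Fyn were Ank (r = 0.89) and Ccdc28a (0.85), and those most like Prkca were Rpl30 (0.91), Pde4b (0.89) and Nr2f1 (0.86). Spearman's rho was well below r for several pairs, at 0.56 for Dact3 and 0.69 for Inpp4a with Gsk3b, 0.70 for Dpysl2 and 0.80 for Impact with Akt1, 0.60 for Nr2f1 with Prkca and 0.82 for Kif1b with Mtor, and naïve mouse 5 was the highest or lowest point for each of these 4 members. The scarce Ptprz1 and Alk had as closest genes Gm31305 (r = 0.92), Dhx58 (0.92) and St8sia4 (0.91), and Gm37733 (0.95), Tctex1d1 (0.95) and Gm43321 (0.94).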

How the data were processed

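RNA of sorted mPFC CRF1+ neurons was sequenced from 6 naïve and 5 withdrawn mice. The authors used cutadapt for trimming, STAR for mapping to GRCm38 and HTSeq for counting, and the deposited values are raw counts per Ensembl gene, without normalization. The strand setting is not given in the sources used here. Symbols, coordinates and exon lengths came from the GENCODE annotation of GRCm38. Mice were grouped by title and treatment. No libraries were duplicates, with a chi-square per degree of freedom of at least 25.6 over all 55 pairs.

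Groups were compared with edgeR 4.0.16 in R 4.3.3 (TMM, filterByExpr with a minimum count of 10 and a minimum total of 15, quasi-likelihood test, Benjamini-Hochberg adjustment over all 17093 genes). Intervals are estimate and standard error with the total degrees of freedom of the quasi-likelihood test, residual plus prior. Levels are CPM on library sizes scaled by TMM, with a prior count of 2 for log2 values. Alternatives were DESeq2 1.42.0 (genes with at least 1 count), limma 3.58.1 voom with sample quality weights, other scalings, dispersions and filters, a replicate block and mice left out. On simulated data for this comparison with 17093 genes and the real dispersions, edgeR recovered 80 of 200 genes (40.0%) given a log2 change of 2 and made 4 false calls.

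The members and lists were chosen with earlier results of these data known. Named were the 9 members, list genes with an unadjusted p under 0.05 (edgeR), the highest gene per kb of a list, relatives of the members, and the 3 genes most alike to each. Further list genes, Ppp3ca and Grin2b among them, were named after their values were seen. Results for some list genes are not reported here. Same-numbered mice are different animals and were not paired.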

Additional observations from a re-analysis of the deposited data

Results flagged for a closer look

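In naïve mouse 5, Akt1 was at 7.54 and Gsk3b at 9.01 on the log2 CPM scale, and each lay far above the other 5 naïve mice. The gap to the next mouse was 0.731 of the group's range for Akt1 and 0.819 for Gsk3b. In all, 26 sets of values were examined in this way and 2 such values were found, where chance gives about 1 in 20, or 1.3. Both belong to naïve mouse 5 and are not independent, so the count cannot be set against chance. That mouse was the highest or lowest of all mice for 41.5% of tested genes. Its deviation from the median of the other naïve mice was larger for Akt1 than for 69% of tested genes, and for Gsk3b than for 68%. Akt2 in the same mouse was at 45.1 CPM (1.85 times the median of the other naïve mice), while Gsk3a was the lowest of all 11 mice at 7.18 CPM.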

How the results depend on the processing

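None of the 9 genes passed the thresholds under any of the 20 alternatives computed. Fyn and Gsk3b stayed lower in withdrawn mice in all 20, with log2 fold changes of -0.49 to -0.34 and -0.89 to -0.32 and adjusted p of 0.217 to 0.914 and 0.413 to 0.981, and kept an unadjusted p under 0.05 in 19. The exception left out the 3 mice whose labels conflict. The count over all genes moved from 1 to 362 with DESeq2, 137 without a low-count filter, 30 with at least 10 counts in every mouse, 0 with the replicate block and 0 without those 3 mice. With each mouse left out in turn it was 0 to 193 (193 without withdrawn mouse 2, 6 without naïve mouse 2). The count of pathway list genes moved from 0 to 2 with DESeq2 and was 0 to 1 with mice left out. Signs turned for Alk and Mtor with limma voom (-0.42 and -0.19) and for Ptprz1 without the 3 mice (-0.022). Leaving out a mouse gave -0.16 to 0.26 for Prkca, -0.12 to 0.16 for Mtor (below 0 without naïve mouse 5, withdrawn mouse 2 or withdrawn mouse 3) and -0.13 to 1.13 for Ptprz1 (below 0 without withdrawn mouse 4). Ptprz1 gave a value in 19 of the alternatives and Alk in 17, since their counts were too low for some filters. The cause of these shifts was not tested. With the replicate number as a block, Fyn was at -0.45, Gsk3b at -0.64, Prkce at -0.17, Ptprz1 at 2.25 (0.27 without the block) and Alk at 2.30 (1.38 without it), and no call on the 9 genes changed. Deviations of same-numbered mice correlated at -0.20 to 0.18, so the numbers did not pair the mice. The log2 fold change of Fyn was smaller than the threshold of 0.6 in every alternative. Counts of Alk did not exceed 39 in any mouse.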

Other observations

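Several other genes of the mTOR and GSK3 lists, named after their values were seen, had log2 fold changes above 0 with intervals that included 0. Rheb and Dpysl2 of the same lists, given above, had log2 fold changes below 0 with intervals that also included 0. Tsc2 and Tsc1, which encode the complex that restrains mTORC1, averaged 110 ± 38.9 and 64.4 ± 20.9 CPM across naïve mice (SD, n = 6) and 151 ± 30.5 and 85.0 ± 21.1 CPM across withdrawn mice (SD, n = 5), with log2 fold changes of 0.46 (95% interval -0.08 to 1.01) and 0.40 (95% interval -0.11 to 0.91). The unadjusted p was 0.0898 for Tsc2 and 0.115 for Tsc1 (edgeR). Tsc2 shares 693 exonic bases with Pkd1 on the opposite strand. Naïve mouse 5 had its lowest level, 50.9 CPM, against a naïve median of 118 CPM and a range of 112 to 194 CPM in withdrawn mice. Gys1, the gene of the muscle-type glycogen synthase that GSK3 phosphorylates, was at 14.2 ± 5.00 CPM across naïve mice (SD, n = 6) and 25.9 ± 15.9 CPM across withdrawn mice (SD, n = 5), with a log2 fold change of 0.87 (95% interval -0.05 to 1.79). None of these differences passed the threshold.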
